A study of Mus musculus with 16 samples.

Results

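Carboxylesterases are hydrolases of the endoplasmic reticulum that split ester, amide and thioester bonds, and they are abundant in hepatocytes. They activate or clear ester drugs, and several of them also hydrolyse acylglycerols and cholesteryl esters, so that the same enzymes serve xenobiotic and lipid metabolism. In the mouse the family has expanded by tandem duplication. Many of its proteins end in a signal that keeps them in the lumen of the endoplasmic reticulum, whereas Ces1c, which circulates, is the main carboxylesterase of mouse plasma. PPARα is the nuclear receptor that fatty acids and fibrate-like drugs activate in liver, and Wy14643 is a synthetic ligand of it.

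The 10 genes followed here were Ces1b, Ces1c, Ces1d, Ces1e, Ces1f, Ces1g, Ces2a, Ces2c, Ces2e and Ces3a. A gene was read through the probe sets (groups of short oligonucleotides on the array) that the platform annotation gives to it, and a probe set naming several genes was used only if all of them were among the 10. That left 9 of the 45037 tested probe sets, for 7 of the 10 genes. Ces1c, Ces1e, Ces1f, Ces1g, Ces2a and Ces2e had 1 probe set each and Ces1d had 3. Ces1b and Ces2c were named by no probe set of the annotation, and the probe set of Ces3a also names Ces3b, which is not among the 10, so none of these 3 genes has a value here. For Ces1d, the probe set with the highest mean over all arrays stood for the gene.

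RNA of 16 livers was hybridised to Affymetrix Mouse Genome 430 2.0 arrays, 1 array per liver and 4 per group. The groups were PPARα-null mice (129S4/SvJae) fed 0.1% (w/w) Wy14643, PPARα-null mice on normal food, wild-type mice (129S1/SvImJ) fed 0.1% (w/w) Wy14643, and wild-type mice on normal food. Feeding lasted 5 days in every group, and all mice were males of 3 to 5 months. The null and wild-type mice are of different substrains, so every difference between genotypes below includes any difference between the substrains, and the 2 cannot be told apart. All values are log2 of the deposited normalised intensity. A gene was called when its p, adjusted by the Benjamini-Hochberg method over all 45037 probe sets in limma, was under 0.01 and its change exceeded 1.5-fold. Levels of different probe sets were not set against each other.

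Array medians lay between 2.15 and 2.24 on the log2 scale, and the member genes averaged 8.25 to 11.79 over all arrays. In wild-type mice, Wy14643 raised 12 of 13 measured genes from a list of known PPARα targets and lowered none. Among them were Cyp4a31 by 8.29, Pdk4 by 7.34 and Acot1 by 6.22. In PPARα-null mice 1 of the 13 was called higher on Wy14643, Acaa1b by 1.14 (limma, adjusted p = 2.95e-04), and 0 lower. There, 9 of the 13 had an unadjusted p under 0.05 in limma, in either direction, as did 9.22% of all probe sets. The Ppara probe sets themselves still gave signal in PPARα-null livers, and on Wy14643 all 3 were lower in null than in wild-type livers, the brightest by 1.15 on the log2 scale. The sources used here do not say whether these probes fall inside the targeted region. One library stood apart: wild-type mouse 3 on Wy14643 had 5 of 6 measured exocrine pancreas genes (Cpa1, Cpb1, Ctrb1, Cela2a and Prss2) at 7.69 to 8.67, against at most 3.20 in the other 15 arrays. Cela1, at 8.53, was within the range of the other arrays (6.49 to 9.72). In the other wild-type livers on Wy14643 the intensities of all 6 genes summed to only 107 to 131, so Cela1 too was lower there than in mouse 3. The members, Ces2g and the gene lists are given with and without this array below.

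The genes lie in 2 clusters on chromosome 8. By the order in RefSeq (GRCm38.p6), Ces1a, Ces1b, Ces1c, Ces1d, Ces1e, Ces1f, Ces1g, Ces1h and Ces5a follow one another with 2 other annotated genes among them, a pseudogene and a long non-coding RNA. Ces2a, Ces2b, Ces2c, Ces2d-ps, Ces2e, Ces2f, Ces2g, Ces2h, Ces3a, Ces3b and Ces4a form the other run, with 10 pseudogenes and long non-coding RNAs among them. RefSeq promoter entries were at hand for 7 of the 10 members. The 250 bases before the start are printed for Ces1c, Ces2a and Ces2e, since these were the members with lower values in wild-type mice on Wy14643. Capitals mark every run of at least 11 letters that the Ces2a and Ces2e promoters have in common.
Ces1c, chr8:93131284-93131533, minus strand: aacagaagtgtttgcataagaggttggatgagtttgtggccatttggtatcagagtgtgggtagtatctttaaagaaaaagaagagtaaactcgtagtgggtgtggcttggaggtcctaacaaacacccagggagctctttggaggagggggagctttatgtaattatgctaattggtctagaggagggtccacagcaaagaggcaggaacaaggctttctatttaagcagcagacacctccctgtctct
Ces2a, chr8:104733753-104734002, plus strand: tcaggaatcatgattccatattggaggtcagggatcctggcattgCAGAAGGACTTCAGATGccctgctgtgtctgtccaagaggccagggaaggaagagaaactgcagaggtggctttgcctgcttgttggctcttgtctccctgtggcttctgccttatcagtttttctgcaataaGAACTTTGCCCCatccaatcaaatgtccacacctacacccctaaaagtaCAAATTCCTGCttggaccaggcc
Ces2e, chr8:104926010-104926259, plus strand: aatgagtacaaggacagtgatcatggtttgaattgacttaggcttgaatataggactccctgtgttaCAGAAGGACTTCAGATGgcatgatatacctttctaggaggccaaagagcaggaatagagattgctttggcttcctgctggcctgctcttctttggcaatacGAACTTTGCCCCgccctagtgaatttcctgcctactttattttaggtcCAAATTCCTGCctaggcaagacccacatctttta

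The Ces2a and Ces2e promoters shared 3 such runs, in the same order. CAGAAGGACTTCAGATG starts 205 bases before the start of Ces2a and 183 before that of Ces2e. GAACTTTGCCCC starts at 72 and 82 bases. On the given strand, both runs were found in these 2 entries alone among 32851 promoter windows of the same length (0.00609%). CAAATTCCTGC, at 23 and 34 bases, was in 7 windows (0.0213%), among them that of Ces2g at 24 bases. The Ces1c promoter held none of the 3, and its longest run in common with a Ces1b promoter was 58 bases. The receptor half-site AGGTCA, searched on both strands, was in the Ces2a window at 226 bases and in neither the Ces1c nor the Ces2e window, and 14.0% of all windows held it. A direct repeat of that half-site with 1 base between (AGGTCANAGGTCA, which overlaps the half-site) was in 0.0335% of windows and in none of a carboxylesterase gene. Only the exact letters of this repeat were searched, and so few of all windows held it that its absence here was likely beforehand. Repeats with other letters, and bases outside the windows, were not searched. Whether a carboxylesterase gene has an inexact repeat of this kind was therefore not tested. All matches given here describe letters only.

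**Figure D1:**
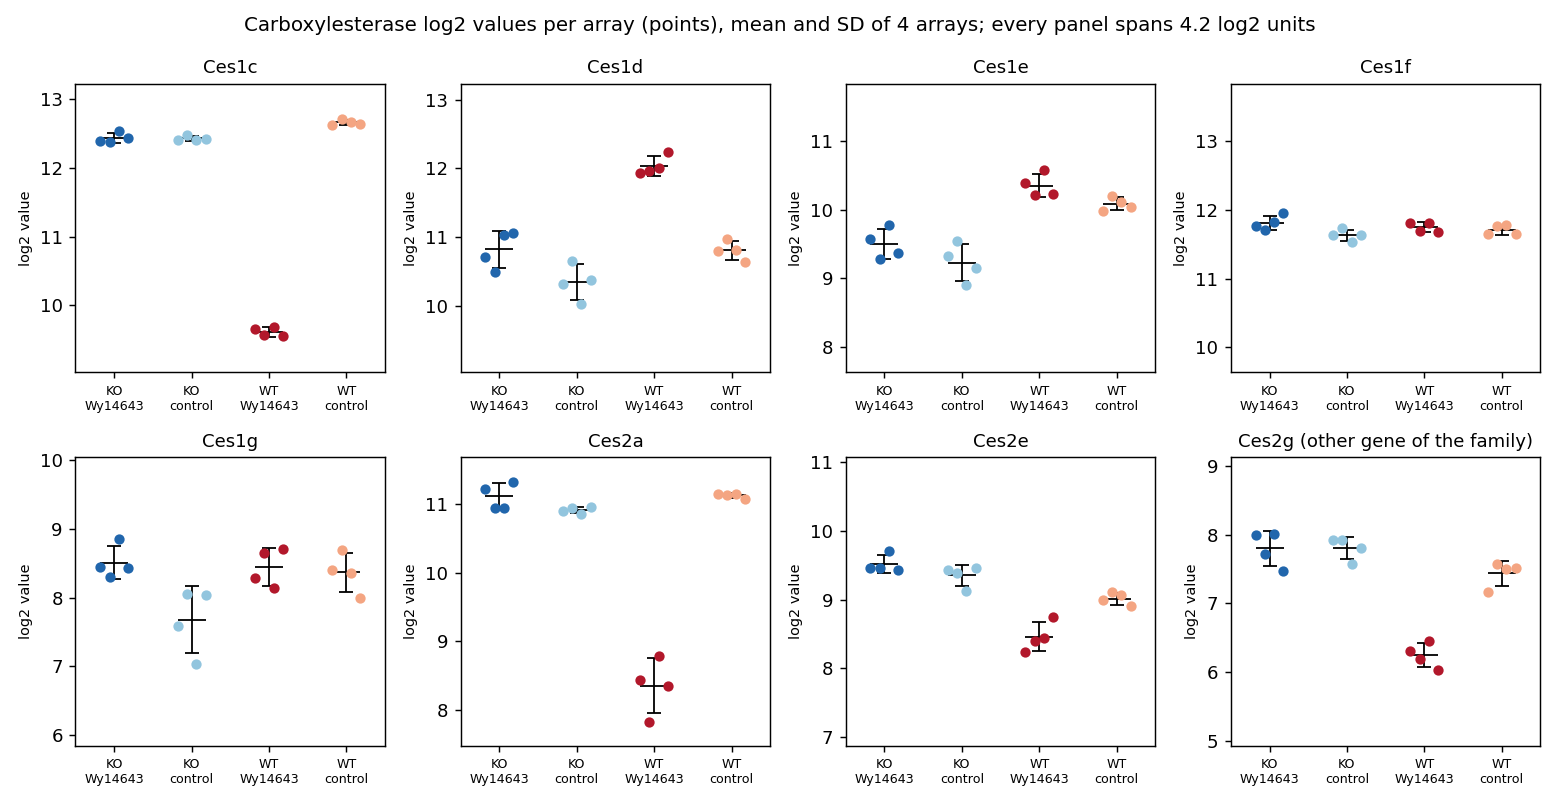
Log2 value of each array (points), with the mean and SD of 4 arrays (black), for the 7 measured member genes and Ces2g, with PPARα-null (KO) mice left of wild-type (WT) mice and Wy14643 left of control food. Ces1c and Ces2a lie about 3 log2 units lower in wild-type mice on Wy14643 than in the other groups, Ces2e and Ces2g are lower there by less, Ces1d is highest there, and Ces1f is nearly level.

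Ces1c and Ces2a had their lowest values in wild-type mice on Wy14643, far below the other groups. Ces1c (1416913_at) read 12.39, 12.38, 12.54 and 12.43 in PPARα-null mice on Wy14643 and 12.41, 12.48, 12.40 and 12.42 in PPARα-null mice on control food. It read 9.66, 9.56, 9.69 and 9.55 in wild-type mice on Wy14643, against 12.63, 12.71, 12.67 and 12.65 in wild-type mice on control food. The 4 treated wild-type livers were thus below all 12 others by more than 2 log2 units, while within a group the SD was at most 0.07. Within wild-type mice Ces1c fell by 3.05 ± 0.07 (SE) on Wy14643, which is 8.27-fold (limma, adjusted p = 7.16e-15). On Wy14643 it was 2.82 ± 0.07 higher in PPARα-null than in wild-type livers (adjusted p = 1.57e-14).

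Ces2a (1449375_at), an enzyme of the endoplasmic reticulum lumen that hydrolyses drugs and acylglycerols, read 11.22, 10.95, 10.94 and 11.33 in PPARα-null mice on Wy14643 and 10.91, 10.94, 10.86 and 10.96 in PPARα-null mice on control food. In wild-type mice it read 8.44, 7.83, 8.79 and 8.35 on Wy14643, against 11.14, 11.13, 11.15 and 11.07 on control food. Again no treated wild-type liver reached any other liver, but the treated wild-type livers varied more among themselves (SD 0.40) than those on control food (SD 0.03). Ces2a fell by 2.77 ± 0.15 in wild-type mice on Wy14643 (6.82-fold, adjusted p = 2.44e-10). On Wy14643 it was 2.76 ± 0.15 higher in PPARα-null than in wild-type livers (adjusted p = 2.22e-10).

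Ces2e (1427137_at), a close relative of Ces2a, was likewise lowest in wild-type mice on Wy14643, with a smaller span. It read 9.46, 9.46, 9.71 and 9.43 in PPARα-null mice on Wy14643 and 9.44, 9.38, 9.12 and 9.46 in PPARα-null mice on control food. It read 8.23, 8.40, 8.44 and 8.74 in wild-type mice on Wy14643, against 8.99, 9.10, 9.06 and 8.90 in wild-type mice on control food. The 2 wild-type groups did not overlap, and both lay below both null groups. In wild-type mice the difference on Wy14643 was -0.56 ± 0.11 (adjusted p = 0.00133), a 1.47-fold change that did not reach the 1.5-fold minimum. Between genotypes on Wy14643, Ces2e was 1.06 ± 0.11 higher in PPARα-null livers (adjusted p = 1.35e-06).

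Ces1d, known as triacylglycerol hydrolase, takes part in mobilising stored hepatic fat for very low density lipoprotein (VLDL) secretion, and it moved the opposite way. Its brightest probe set (1449081_at) read 10.71, 10.49, 11.03 and 11.06 in PPARα-null mice on Wy14643 and 10.31, 10.65, 10.02 and 10.38 in PPARα-null mice on control food. It read 11.92, 11.97, 12.01 and 12.24 in wild-type mice on Wy14643, against 10.80, 10.97, 10.80 and 10.64 in wild-type mice on control food. All 4 treated wild-type livers were above every other liver. Ces1d rose by 1.23 ± 0.14 in wild-type mice on Wy14643 (2.35-fold, adjusted p = 4.37e-06). On Wy14643 it was lower by 1.21 ± 0.14 in PPARα-null livers (log2 difference -1.21, adjusted p = 4.71e-06).

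**Figure D2:**
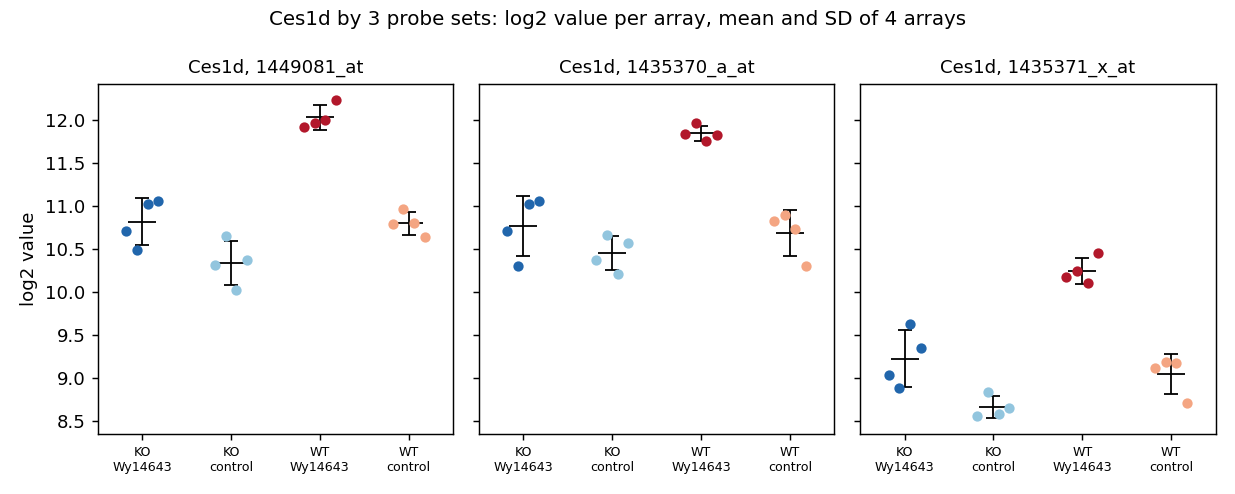
Log2 value of each array (points) with the mean and SD of 4 arrays (black) for the 3 probe sets of Ces1d, groups as in the plot of all members. In each probe set the 4 livers of wild-type mice on Wy14643 lie above the 12 others.

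The other probe sets of Ces1d gave like values. In wild-type mice, 1435370_a_at rose by 1.16 ± 0.16 on Wy14643 (adjusted p = 3.47e-05) and 1435371_x_at by 1.20 ± 0.15 (adjusted p = 9.66e-06). Between genotypes on Wy14643, their differences were -1.07 and -1.02, both called. The order of the 4 group means was the same in all 3 probe sets, from PPARα-null on control food as the lowest through wild-type on control food and PPARα-null on Wy14643 to wild-type on Wy14643. The first 3 of these groups overlapped with their neighbour in that order for the brightest probe set, and the highest group overlapped with none.

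Ces1e, also called egasyn, holds β-glucuronidase in the endoplasmic reticulum, and it differed by genotype on both foods. Its probe set (1419510_at) read 9.58, 9.29, 9.78 and 9.36 in PPARα-null mice on Wy14643 and 9.33, 9.55, 8.90 and 9.15 in PPARα-null mice on control food. It read 10.39, 10.22, 10.57 and 10.22 in wild-type mice on Wy14643, against 9.99, 10.20, 10.11 and 10.05 in wild-type mice on control food. Every null liver was below every wild-type liver. The difference between null and wild-type mice was -0.85 ± 0.14 on Wy14643 (adjusted p = 1.44e-04) and -0.86 ± 0.14 on control food (adjusted p = 0.00325). The response to Wy14643 was 0.27 ± 0.14 in PPARα-null mice (adjusted p = 0.575) and 0.26 ± 0.14 in wild-type mice (adjusted p = 0.215), and neither was called. The call on control food was not kept in 4 of the 16 fits that left out 1 array, where its adjusted p reached 0.0171.

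Ces1f and Ces1g were called in no comparison. Ces1f (1424266_s_at), a microsomal carboxylesterase that like Ces1d has been tied to hepatic triacylglycerol turnover, ranged from 11.70 to 11.95 in PPARα-null mice on Wy14643, from 11.53 to 11.73 in PPARα-null mice on control food, from 11.68 to 11.82 in wild-type mice on Wy14643, and from 11.65 to 11.79 in wild-type mice on control food. All neighbouring groups overlapped. The 95% interval of its wild-type response was -0.14 to 0.21, and that of its null response was 0.0027 to 0.36.

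Ces1g (1449486_at), which as Es-x has been linked to hepatic lipid and cholesterol handling, was more variable. It read 8.45, 8.30, 8.86 and 8.43 in PPARα-null mice on Wy14643 and 7.59, 8.06, 7.03 and 8.04 in PPARα-null mice on control food. It read 8.29, 8.65, 8.14 and 8.71 in wild-type mice on Wy14643, against 8.40, 8.69, 8.36 and 8.0 in wild-type mice on control food. The null mice on control food thus had the lowest mean and the widest spread (SD 0.49), and they did not overlap with the null mice on Wy14643. That null response was 0.83 ± 0.21, with an unadjusted p of 0.00115 in limma and an adjusted p of 0.173, so it was not called. The corresponding response of wild-type mice was 0.080 ± 0.21.

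**Figure D3:**
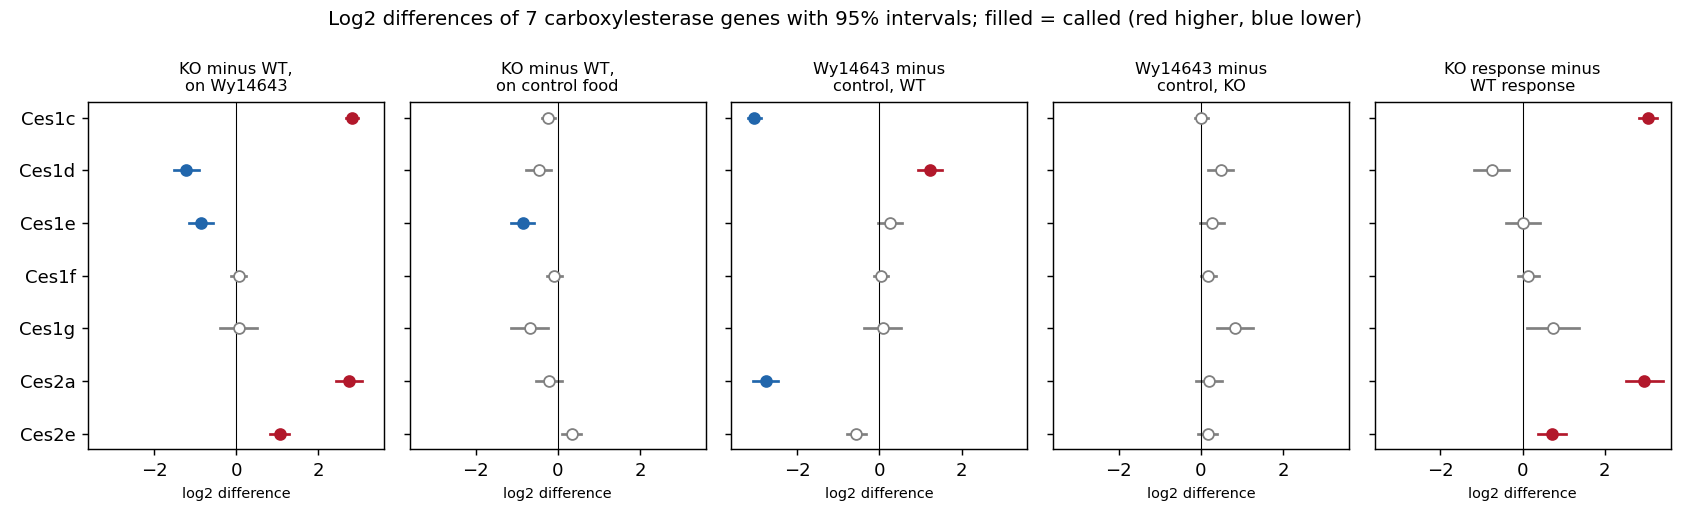
Log2 difference (x axis) and its 95% interval for the 7 member genes in 5 comparisons: null (KO) minus wild type (WT) on each food, Wy14643 minus control food within each genotype, and the difference of the 2 responses. Filled points were called, red for higher and blue for lower; no point is filled for the null response, and Ces1c and Ces2a have the largest differences in the 3 panels that involve wild-type mice on Wy14643.

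Counted by gene, PPARα-null mice on Wy14643 had 3 of 7 members higher (Ces1c, Ces2a and Ces2e) and 2 lower (Ces1d and Ces1e) than wild-type mice on Wy14643. Of the whole table, 4.91% of probe sets passed as higher and 6.17% as lower in that comparison, and among the 12877 probe sets with a mean log2 above 4, as all members have, 14.2% and 13.8%. On control food, 0 members were higher and 1 was lower in PPARα-null mice (Ces1e), with 0.0910% of all probe sets called higher and 0.262% lower. In that comparison 5 of 7 members had an unadjusted p under 0.05 in limma, as did 8.30% of all probe sets. This share and the like one for the null response below were taken over all probe sets only. They were not taken above a mean log2 of 4, where all members lie. Apart from Ces1e, the differences on control food ran from -0.69 for Ces1g to 0.34 for Ces2e.

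Within wild-type mice, Wy14643 raised 1 of 7 members (Ces1d) and lowered 2 (Ces1c and Ces2a). In the whole table, Wy14643 raised 5.84% of probe sets and lowered 4.82%, and the shares were 12.9% and 14.2% among those with a mean log2 above 4. Within PPARα-null mice 0 of 7 members were called by limma, where 0.0133% of all probe sets were called higher and 0% lower. There, 3 of 7 members had an unadjusted p under 0.05, as did 9.22% of all probe sets. The median change of the 7 members was 0.19 in null mice and 0.037 in wild-type mice, beside 0.0069 and -0.030 over all probe sets. The members thus moved in both directions in wild-type mice, and their median hides this.

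The difference between the null and the wild-type response was tested directly as an interaction term. It was called for Ces1c, at 3.05 ± 0.10 (adjusted p = 2.37e-12), and for Ces2a, at 2.97 ± 0.21 (adjusted p = 2.63e-08). The interaction for Ces2e was smaller, at 0.72 ± 0.16 (adjusted p = 0.00492), and this adjusted p reached 0.0127 in fits that left out 1 array. For these 3 genes the change in null mice was 0.0058 ± 0.07, 0.19 ± 0.15 and 0.16 ± 0.11, none of them called. For Ces1d the interaction was -0.75 ± 0.20 with an adjusted p of 0.0196, outside the limit of 0.01, so its response was not shown to differ between genotypes at that limit; in null mice it was 0.48 ± 0.14 (adjusted p = 0.265). Of the whole table, 2.94% passed as higher and 4.10% as lower for the interaction, and above a mean log2 of 4 these shares were 9.38% and 9.91%. These comparisons share arrays, so their values for a gene are not independent of each other.

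Leaving out wild-type mouse 3 on Wy14643, the array with pancreas genes, changed none of the counts of called members. Without it, the wild-type response was -3.07 for Ces1c, -2.92 for Ces2a, -0.56 for Ces2e and 1.24 for Ces1d. Between genotypes on Wy14643 the differences were then 2.85 for Ces1c, 2.90 for Ces2a, 1.06 for Ces2e, -1.22 for Ces1d and -0.78 for Ces1e. The interaction for Ces2e was 0.72 with an adjusted p of 0.00995.

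The arrays measured whole liver, where fewer cells of a type and less RNA per cell cannot be told apart. Summed intensities of 11 hepatocyte markers, none of them at or below the array median, were 96906 to 101919 in PPARα-null mice on Wy14643, against 97735 to 101366 on control food. In wild-type mice they were 81852 to 87617 on Wy14643, against 101270 to 102803 on control food. Of the 11, 0 were called higher and 2 lower there, Cps1 (-0.97) and Fgb (-0.72). The other 9 were not called, and the median of the 11 was -0.32. The uncalled ones ran from Ass1 (-1.27) and Tat (-0.70) through Serpina1b (-0.49), Ttr (-0.10) and Alb (-0.067) to Tdo2 (0.16). Ass1 was read at a low level, with means of 2.71 on Wy14643 and 3.97 on control food. Beside this and the marker counts below, 5.84% of all probe sets were called higher and 4.82% lower in wild-type mice on Wy14643. Of 12 Kupffer cell markers, 10 were lower in wild-type mice on Wy14643 (sums 737 to 953) than on control food (1387 to 1602), with Marco at or below the highest array median in both Wy14643 groups. Of 10 stellate cell markers 4 were lower (1279 to 1496 on Wy14643, against 1971 to 2163 on control food), with Des at that level. Of 6 adipocyte markers 3 were higher (6945 to 8133, against 73.3 to 122), but Adipoq, Lep and Retn stayed at or below the highest array median. Of 7 enterocyte markers 2 were higher, Fabp2 and Anpep (2060 to 2237, against 748 to 884), with Lct, Cdx1, Cdx2 and Muc2 at or below that median in all groups. Of 7 blood cell markers 1 was lower, the erythroid gene Alas2 (110 to 142, against 513 to 617), with Hba-a1, Cd79a, S100a8 and S100a9 at or below it. Endothelial sums were 1130 to 1240, against 1413 to 1639, with 1 of 10 markers higher and 2 lower. Without wild-type mouse 3 on Wy14643, 9 of the 12 Kupffer cell markers were lower (sums from 801), 1 of the 7 enterocyte markers was higher, and neither lower endothelial marker kept its call. The part of these shifts in the changes of Ces1c, Ces2a, Ces2e and Ces1d was not tested.

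Of the other carboxylesterase genes, 6 of 10 listed had a probe set of their own. Ces2g, which lies in the Ces2 cluster, was the only one with group means well above the array median. It ranged from 7.48 to 8.02 in PPARα-null mice on Wy14643 and from 7.58 to 7.92 in PPARα-null mice on control food. It ranged from 6.03 to 6.45 in wild-type mice on Wy14643, against 7.16 to 7.57 in wild-type mice on control food. As with Ces2a, the treated wild-type livers were below all others. Ces2g fell by 1.19 ± 0.14 in wild-type mice (adjusted p = 3.46e-06), and its change in null mice was -0.0050 ± 0.14. Its interaction was 1.19 ± 0.19 (adjusted p = 3.24e-04). Without wild-type mouse 3 on Wy14643, these were -1.26 for the wild-type response and 1.26 for the interaction, both still called. Ces1h, Ces2b, Ces2f, Ces4a and Ces5a were near the array median and were called in no comparison.

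Other ester hydrolases of liver were counted in the same fits. Beside the counts of this and the following lists, 5.84% of all probe sets were higher and 4.82% lower in wild-type mice on Wy14643. Above a mean log2 of 4 these shares were 12.9% and 14.2%. Of 17 measured genes in a list of lipid ester hydrolases and cofactors, 11 were higher and 1 was lower in wild-type mice on Wy14643, with a median of 2.05. The higher ones include G0s2 (2.18), an inhibitor of Pnpla2 and not a hydrolase. Cel was also in the list and was not called (SE 0.88). Without wild-type mouse 3 on Wy14643 the median of the list was 2.02. Lpl, the lipoprotein lipase of blood vessels, rose by 4.71 ± 0.24, and Pnpla2, which starts the breakdown of stored triacylglycerol, rose by 3.18 ± 0.13. Mgll, which cleaves monoacylglycerol, rose by 2.96 ± 0.11, and Nceh1, a cholesteryl ester hydrolase, by 2.81 ± 0.19. Of the 17, 0 were called in null mice by limma, where 5 had an unadjusted p under 0.05. Ces1d thus changed in the same direction as most of this list, and Ces1c and Ces2a in the opposite one.

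Of 21 measured genes in a broad list of xenobiotic esterases and other hydrolases, 4 were higher and 6 lower in wild-type mice on Wy14643, with a median of 0.078. That list also held the fatty acid synthase gene Fasn, the pancreas gene Cpa1, and Acot1, which was counted among the PPARα targets too. Aadac, not called, was in both this list and that of the lipid ester hydrolases. The largest rises were those of the acyl-CoA thioesterases Acot1 (6.22) and Acot2 (3.92) and of Cmbl (1.21), and Afmid, an arylformamidase of tryptophan breakdown, fell by 0.97. In null mice limma called 0 of the 21, with 3 at an unadjusted p under 0.05. Targets of the drug-sensing receptors CAR and PXR are of interest beside Ces2a, a known target of CAR. The list held both receptors as well, and of its 20 measured genes 3 were higher and 9 lower in wild-type mice on Wy14643, with a median of -0.18. The lower ones include Cyp2c37 and Cyp2c55, whose means on Wy14643 were at or below the highest array median. Their falls are thus bounds, of at least 1.30-fold and 1.26-fold, which are under the 1.5-fold minimum. The higher ones were the receptor genes Nr1i2 (PXR, 1.79) and Nr1i3 (CAR, 0.88) and 1 target, the transporter gene Abcc3 (0.73). The cytochromes P450 Cyp2c54 (-5.44), Cyp2c50 (-3.52) and Cyp2b10 (-2.64) and the glutathione transferase Gstm3 (-2.06) had the largest changes, and 0 of 20 were called in null mice by limma, with 3 at an unadjusted p under 0.05.

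Partners of the family were counted last. Of 14 VLDL assembly genes, 1 was higher and 4 were lower in wild-type mice on Wy14643, with a median of -0.32. Among all probe sets with a mean log2 above 4, 12.9% were higher and 14.2% lower. The microsomal transfer protein gene Mttp, which loads lipid onto apolipoprotein B, rose by 1.13 ± 0.08, as Ces1d did, while Apoa4 fell by 3.61 ± 0.29, Tm6sf2 by 1.12 ± 0.21 and Apoc3 by 0.85 ± 0.07. Of 7 genes of endoplasmic reticulum retention and glucuronidation, 0 were higher and 3 were lower. These were Ugt2b1 (-2.35), a glucuronosyltransferase, Kdelr2 (-0.99), a receptor that returns proteins to the endoplasmic reticulum, and Ugt2b36 (-0.63). Gusb, the β-glucuronidase that Ces1e binds, differed between null and wild-type mice by -0.23 ± 0.14 on Wy14643 (adjusted p = 0.301) and by -0.083 ± 0.14 on control food (adjusted p = 0.938), and was called on neither. In null mice limma called 0 genes of either list, where 1 VLDL gene and 0 of the 7 had an unadjusted p under 0.05. A check added after the data were seen left out wild-type mouse 3 on Wy14643. The counts of the wild-type response were then the same for the PPARα targets and for these lists, except that 8 genes of the CAR and PXR list were lower. The median of the broad list with the xenobiotic esterases, which holds Cpa1, was -0.10, the opposite sign.

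**Figure D4:**
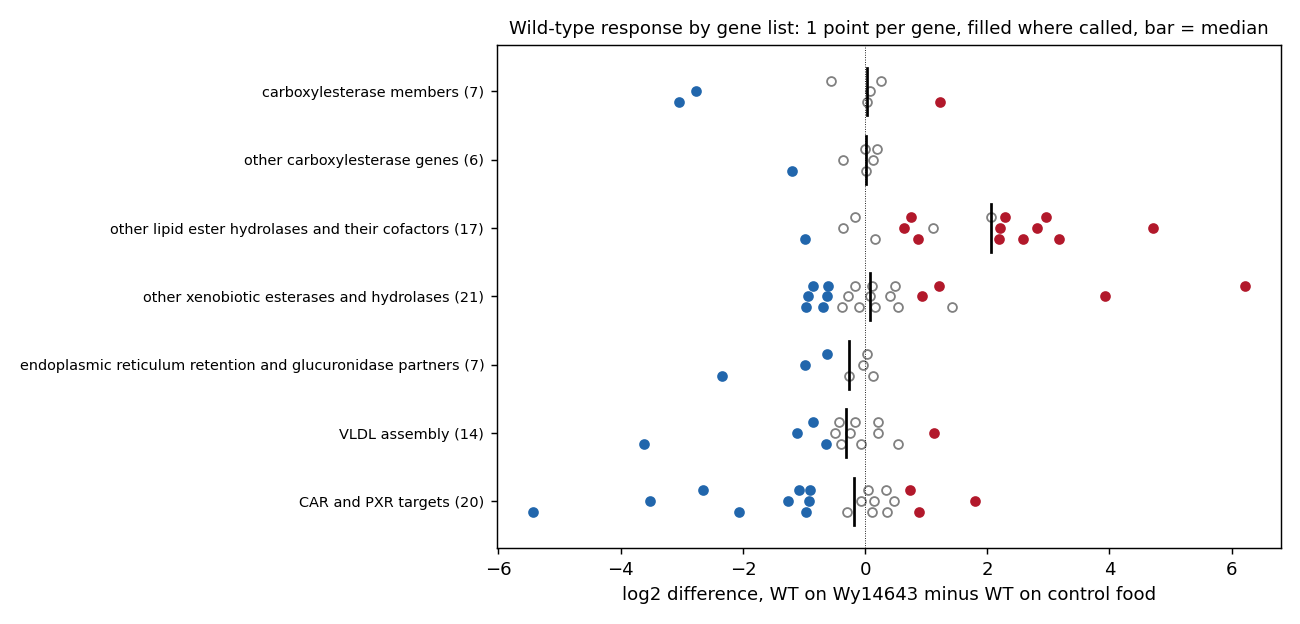
Log2 difference of wild-type mice on Wy14643 minus wild-type mice on control food, 1 point per gene, for the 7 members and 6 related gene lists, with the number of measured genes in brackets. Filled points were called (red higher, blue lower) and the bar is the median, which is 0.037 for the members and 2.05 for the lipid ester hydrolases.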

How the data were processed

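Liver RNA of 16 mice was hybridised singly to Affymetrix Mouse Genome 430 2.0 arrays. The authors made the deposited intensity values with GCRMA (version 2.20 in the submitters' processing notes), which corrects background by probe sequence, normalises across arrays and gives 1 value per probe set. The values (array maxima 18107 to 22364) were on a linear scale, so log2 was taken without an offset. The table held 45101 probe sets, of which 64 controls were left out. Probe sets were named from the platform annotation: 34945 name 1 gene, 932 several and 9160 none. Since hybridisation of related paralogs to a probe set was not tested, values of Ces1 and Ces2 genes may include related transcripts, above all for the probe sets ending in _s_at, _a_at or _x_at.

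All arrays were fitted in limma 3.58.1 (R 4.3.3) with 1 mean per group and moderated variances. The call needed an adjusted p under 0.01 and a 1.5-fold change. The mice are separate animals per the labels. The labels were followed for the group size and the labelling input, which the study's methods section gives otherwise. Its results section gives a range of group sizes that includes that of the labels. Every member was named, other carboxylesterases too, and of each related list up to 4 called genes with the largest wild-type response (3 of the PPARα targets). The members and lists were chosen with earlier results of these data known. A level at or below the highest array median was treated as a bound. Each fit was repeated under 12 other settings and without each array. The number of arrays limits the precision. The script was tested on simulated data.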

Additional observations from a re-analysis of the deposited data

Results flagged for a closer look

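The responses of 3 members to Wy14643 differed between PPARα-null and wild-type mice by the interaction term in limma. The null response minus the wild-type response was 3.05 for Ces1c, 2.97 for Ces2a and 0.72 for Ces2e. Among the members' values within groups, 1 of 28 groups held an array far from the rest by Dixon's criterion, which chance meets in about 1 in 20 groups. It was Ces2e in PPARα-null mouse 3 on Wy14643, at 9.71, where the nearest other array of the group was at 9.46.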

How the results depend on the processing

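Of 35 differences of single members, 27 kept their direction and call under the 12 other settings (fewer where a setting could not be applied to the interaction), and the causes of the changes were not tested unless named. On control food, the 1 lower member (Ces1e) became 0 with the replicate number as a block, with only the arrays compared and with a test against a 1.5-fold change, and 0 to 1 when 1 array was left out (0 without wild-type mouse 2 or 3 or PPARα-null mouse 3 or 4 on control food). On Wy14643, the 2 lower members became 1 under the test against 1.5-fold, which dropped Ces1e. For the interaction, 0 lower members became 1 (Ces1d) with a filter on mean log2 above 4 or an adjusted p under 0.05 without a fold minimum, and 0 to 1 when 1 array was left out (1 without PPARα-null mouse 3 on control food). The interaction for Ces2e lost its call with the block, under the test against 1.5-fold, and without wild-type mouse 1 or 2 or PPARα-null mouse 3 on Wy14643, or wild-type mouse 2 or 3 or PPARα-null mouse 3 on control food (0.65 to 0.82 over all such fits). The 2 lower members of the wild-type response became 3, with Ces2e, under quantile normalisation, array weights and an adjusted p under 0.05 without a fold minimum, and without wild-type mouse 4 on either food.

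Reversals concerned values near 0. The null response of Ces1c was -0.016 under median centring and -0.018 under quantile normalisation, and -0.028 to 0.024 when 1 array was left out. The interaction of Ces1e was -0.032 under median centring and -0.10 to 0.11 when 1 array was left out. The wild-type response of Ces1f was -0.023 under quantile normalisation. When 1 array was left out, Ces1g lay between -0.054 and 0.15 for the genotypes on Wy14643 and between -0.041 and 0.19 for the wild-type response.

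Replicate numbers are shared across groups, and the mice are separate animals per the labels. Deviations from the group means correlated with r of -0.12 to 0.19 (median 0.048) between same-numbered arrays. Between differently numbered arrays of different groups r was -0.28 to 0.20 (median -0.015). Of 16 arrays, 7 correlated best with their own number. Whether same-numbered mice shared a processing step was not tested. With the replicate block, 5005 probe sets were called for the genotypes on Wy14643 (4991 without it), 147 on control food (159), 4790 for the wild-type response (4801), 6 for the null response (6) and 3037 for the interaction (3170).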
